A study of Mus musculus with 6 samples.

Results

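Sox6, Sp3, Purb, Pura, Cbx1, Six4, Eya1, Tead1 and Tead4 encode regulators of muscle genes and are described here in mouse gastrocnemius (GAS) muscle. These genes encode, among others, repressors of slow muscle genes and factors of the fast muscle program. They were chosen by name: all 9 are among the 24532 genes of the deposited table, and all 9 were among the 13801 that passed a filter on low counts. RNA-seq was made from 3 mice labelled WT (Sirt6 flox/flox) and 3 labelled Sirt6 KO (Myl1-Cre; Sirt6 flox/flox), all on the C57BL/6 strain and 20 weeks old by the labels, with 1 library per animal; libraries of the second group are called KO-labelled. Both groups carry the floxed *Sirt6* allele, the WT animals had no Cre, and the Cre is driven by the myosin light chain 1 promoter, whose activity the study places chiefly in differentiated fast (type II) fibers. The animals were male.

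Adult muscle fibers are slow or fast according to the myosin and metabolic genes that they express. SOX6 binds directly at slow fiber genes and holds them down in fast fibers, while SP3 and the purine-rich element binding proteins PURA and PURB repress the slow myosin gene *Myh7* in muscle cells, and CBX1 (HP1 beta) binds a repressive histone mark. SIX4 with its coactivator EYA1, a partner of the sine oculis homeodomain proteins, takes part in the fast glycolytic program, and TEAD1 and TEAD4 bind M-CAT elements of muscle genes together with YAP, TAZ or VGLL cofactors. The study names TEAD1 and TEAD4 as transcriptional activators that SOX6 inhibits indirectly as it holds slow fiber genes down. The microRNAs miR-499 and miR-208b, made from introns of the slow myosin genes *Myh7b* and *Myh7*, are known to repress *Sox6*, *Sp3*, *Purb* and *Cbx1*.

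These 2 microRNAs are shown because their seeds (bases 2 to 8, in capitals) define the sites listed after them. The sequences are RefSeq entries on GRCm38.p6, at chr2:155622893-155622913 on the plus strand inside *Myh7b* and at chr14:54975710-54975731 on the minus strand inside *Myh7*. The microRNAs themselves were not measured in these libraries.
mmu-miR-499-5p: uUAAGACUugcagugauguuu
mmu-miR-208b-3p: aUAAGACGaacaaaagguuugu

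The sites below are from the 3′ UTRs of GENCODE M21 transcripts, with the match to the seed in capitals: AGTCTTA for miR-499-5p, CGTCTTA for miR-208b-3p, and GTCTTAA, a 7-letter match to bases 2 to 7 followed by A that both microRNAs share. *Sox6* held 3 matches for miR-499-5p, 1 for miR-208b-3p and 1 shared match. *Purb* held 1 match for miR-499-5p that runs into a shared match, and 1 more shared match. *Sp3* held 1 match for miR-208b-3p, and *Cbx1* and *Tead1* held 1 shared match each.
Sox6, miR-499-5p, chr7:115476625-115476646 minus: tcgccgtcttatgAGTCTTAca
Sox6, miR-499-5p, chr7:115476312-115476333 minus: taactattttaaaAGTCTTAca
Sox6, miR-499-5p, chr7:115476290-115476311 minus: ggagacactgcaaAGTCTTAga
Sox6, miR-208b-3p, chr7:115476634-115476655 minus: ctctgcccatcgcCGTCTTAtg
Sox6, shared, chr7:115476790-115476811 minus: acatcagcagaatgGTCTTAAt
Sp3, miR-208b-3p, chr2:72937235-72937256 minus: ataaggtgtattgCGTCTTAgc
Purb, miR-499-5p and shared, chr11:6473742-6473763 minus: ataacagaactgaAGTCTTAAt
Purb, shared, chr11:6472002-6472023 minus: tggtgggtttttatGTCTTAAc
Cbx1, shared, chr11:96808110-96808131 plus: tactgtcagtttttGTCTTAAt
Tead1, shared, chr7:112902012-112902033 plus: tgtagagtttccctGTCTTAAt

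Any of these 3 matches was present in the 3′ UTR of 19.0% of 13098 genes, whose median 3′ UTR length was 1370 bases. Most of the 9 genes have longer 3′ UTRs than that, so the share among genes with a 3′ UTR at least as long is the closer background. It was 72.0% for *Sox6* (6046 bases), 77.6% for *Purb* (7313 bases), 78.8% for *Tead1* (8147 bases), 33.6% for *Sp3* (1639 bases) and 34.2% for *Cbx1* (1706 bases). *Pura* (4408 bases) held 1 shared match, where 56.6% of UTRs at least as long held any. *Six4*, *Eya1* and *Tead4* held none of these letters.

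Promoter windows (250 bases before to 50 after a gene start, RefSeq, GRCm38.p6) were matched for 5 of the 9 genes, in 12 windows: *Sox6*, *Sp3*, *Purb*, *Cbx1* and *Six4*. Because the study asks about the cAMP response element-binding protein CREB, the windows were searched on both strands for its full element (CRE, TGACGTCA, in 1.79% of 32851 windows) and its shorter core (TGACG, in 20.81%). The *Purb* window held a full CRE that begins 29 bases before the gene start. Counting both strands of that CRE, it held 4 cores. No other window of these genes held the full element. *Sox6* had 6 windows, of which 1 held a core, and 1 of the 2 windows of *Sp3* held another. The 250 bases before the start are shown for *Purb*, the gene with the CRE, and for the *Sox6* window with the core. CRE and core letters are in capitals.
Purb, chr11:6476077-6476326 minus: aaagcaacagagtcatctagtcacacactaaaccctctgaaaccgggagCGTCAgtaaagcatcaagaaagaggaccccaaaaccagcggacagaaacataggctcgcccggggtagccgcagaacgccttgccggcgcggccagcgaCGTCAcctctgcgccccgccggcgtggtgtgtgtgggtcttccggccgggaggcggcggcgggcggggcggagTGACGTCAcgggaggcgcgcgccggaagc
Sox6, chr7:116038745-116038994 minus: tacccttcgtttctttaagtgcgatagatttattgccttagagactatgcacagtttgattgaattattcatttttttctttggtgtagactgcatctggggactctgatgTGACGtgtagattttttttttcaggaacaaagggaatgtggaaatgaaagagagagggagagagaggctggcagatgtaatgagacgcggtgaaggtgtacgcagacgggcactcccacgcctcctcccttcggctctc

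The windows were also searched on both strands for the elements that the proteins of these genes are known to bind. The GC box of SP factors (GGGCGG) was present in 35.66% of all windows. It stood 3 times in the *Purb* window and 2 and 5 times in the windows of *Sp3*. In 1 window of *Sox6* it stood 4 times, and once in each of the windows of *Cbx1* and *Six4*. The windows of *Six4* overlap, and their match is the same site. The M-CAT letters of TEAD factors (CATTCC, in 14.66%) stood once in each of 2 windows of *Sox6*. The MEF3 letters of SIX4 (TCAGGTT, in 4.07%) stood once in 1 window of *Sox6* and once in 1 of *Six4*. A SOX motif (AACAAT, in 10.72%) was matched 2 times, in 1 window of *Sox6*. None of these matches shows that a factor binds there.

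The libraries held 44845763 to 63016899 counts, and 1 count was worth 0.0165 to 0.0212 CPM. CPM is a count scaled to library size by TMM and the unit of levels below unless another is named. *Sirt6*, the deleted gene, stood at 7.81, 7.44 and 6.68 CPM in the KO-labelled libraries, above its 2.77, 2.23 and 2.88 CPM in WT ( log2 fold change 1.48, SE 0.17, adjusted p = 0.0113 by edgeR), so each direction below is by label only. Counts per gene do not separate the deleted exons from the rest of the transcript. The 4 tested satellite cell markers summed to 34.7 to 46.8 CPM in the KO-labelled libraries and 19.8 to 27.1 CPM in WT. Most of each sum was *Cdh15*, at 29.0 to 39.4 CPM in the KO-labelled libraries and 14.9 to 23.0 CPM in WT. The mean GC content of the counted genes, weighted by counts, was 51.5 to 51.6% in the KO-labelled libraries and 50.7 to 50.9% in WT. The signed log2 fold change, KO-labelled minus WT, tended to be higher in genes of higher GC content (Spearman's rho 0.339 across 13271 genes, as a description). Of the 9 genes here, 8 lie below the median GC content of 49.8%. Of the endothelial, fibroblast, macrophage, adipocyte and erythroid markers 0 passed. All 5 myofiber markers were measured in every library, at a summed 60896 to 89424 CPM. In bulk muscle, fewer cells of a type and less RNA per cell cannot be told apart.

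Of the 9 genes, *Purb* fell and *Pura* rose in the KO-labelled libraries, and the other 7 did not pass an adjusted p of 0.05. By the same test, 16.2% of all genes tested passed (8.39% lower, 7.85% higher), so 2 of 9 is near that background. Read by overlap alone, *Sp3*, *Purb*, *Eya1* and *Tead1* were lower in all 3 KO-labelled libraries than in any WT library, *Pura* was higher in all 3, and the groups overlapped for *Sox6*, *Cbx1*, *Six4* and *Tead4*. Groups did not overlap for 40.0% of all genes (19.6% lower, 20.3% higher). Few genes of any kind passed without the library labelled Sirt6 KO 1 (8 genes) or 3 (13 genes). Of the 10 genes of the lists below that are named as passing, all 10 lost the call without the library labelled Sirt6 KO 3, 9 without KO 1 (all but *Maf*), 8 without WT 1, 7 without WT 2 and 3 without KO 2. The fitted log2 fold change was below 0 for 7 of the 9 genes, with a median of -0.16, beside -0.02 over all genes tested.

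**Figure D1:**
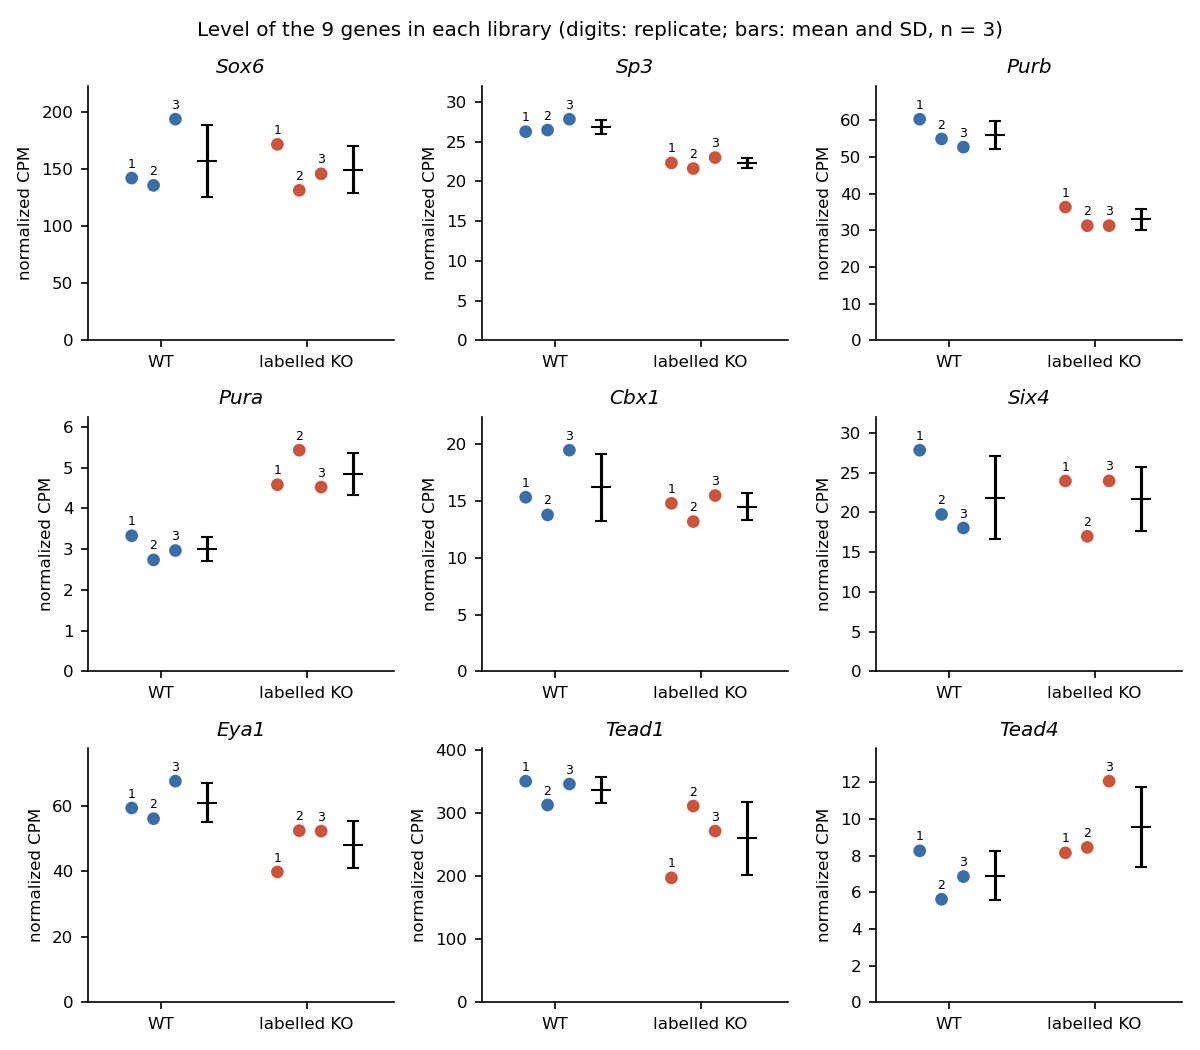
Level of each of the 9 genes in every library, in normalized CPM on axes that start at 0. Points are libraries with their replicate digit, and bars give the mean and SD of 3 libraries. *Purb* ran from 52.7 to 60.3 CPM in WT and 31.3 to 36.4 CPM in the KO-labelled libraries, while the points of *Sox6* overlap.

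*Sox6* (chr7:115470872-116040776, minus strand, GRCm38), the direct repressor of slow fiber genes, was at 142, 136 and 194 CPM in WT libraries 1 to 3 and at 172, 131 and 146 CPM in those labelled Sirt6 KO. The highest library was WT 3 and the lowest was the library labelled Sirt6 KO 2, and the groups overlapped. The means were 157 ± 31.8 and 149.5 ± 20.4 CPM (SD, n = 3 each). The fitted log2 fold change was -0.07 (SE 0.17, adjusted p = 0.799). Its 95% interval ran from -0.48 to 0.34. The direction was not stable: the log2 fold change was 0.038 after the GC trend was removed, 0.11 without WT 3 and 0.028 without the library labelled Sirt6 KO 2.

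The 14 slow muscle genes of a list varied by library more than *Sox6* did. Which of the 14 SOX6 holds down was not tested. Their summed level was 8326, 9118 and 1472 CPM in WT libraries 1 to 3, and 1767, 5356 and 2195 CPM in the KO-labelled libraries. Much of each sum was *Myh2*, the gene of type IIa myosin and the highest of the 14 in every library. It was at 3732, 5223 and 1256 CPM in WT, and 1313, 2694 and 1571 CPM in the KO-labelled libraries. The library with the most *Sox6*, WT 3, had the lowest slow sum, and the libraries with the least *Sox6*, the one labelled Sirt6 KO 2 and WT 2, had slow sums of 5356 and 9118 CPM, with no test made of this over 6 libraries. Of the 14 slow genes 0 passed in either direction by edgeR, with a median log2 fold change of -1.19 and 13 below 0. Across all genes, 4875 had an unadjusted p under 0.05.

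**Figure D2:**
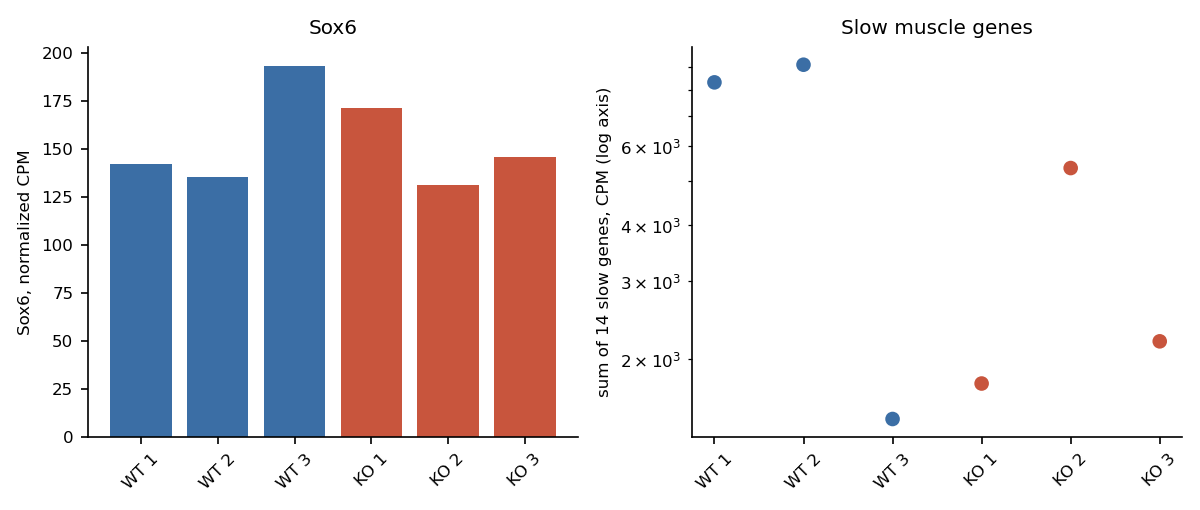
Left, *Sox6* in each library in normalized CPM. Right, the summed CPM of 14 slow muscle genes on a log axis. WT 3 has the highest *Sox6* bar (194 CPM) and the lowest slow sum (1472 CPM).

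The host genes of the microRNAs shown above followed the same split of libraries. *Myh7*, slow myosin, was at 1138, 958 and 21.7 CPM in WT, against 100, 720 and 163 CPM in the KO-labelled libraries. *Myh7b* was at 7.64, 4.12 and 0.42 CPM in WT, against 1.81, 9.68 and 1.71 CPM in the KO-labelled libraries. Both ranges overlapped between the groups, and neither gene passed (adjusted p = 0.547 and 0.940). The genes whose log2 CPM followed *Sox6* most closely over the 6 libraries were *Amz2*, *Lrrc61* and *Cdk2ap1*, with Pearson correlations of 0.994, 0.993 and 0.992. All 6 values come from the same libraries and 165 genes lay above 0.9, so these names are a description only.

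*Purb* (chr11:6467599-6476076, minus strand), a repressor of *Myh7* that binds purine-rich single strands, was at 60.3, 55.0 and 52.7 CPM in WT, against 36.4, 31.3 and 31.3 CPM in the KO-labelled libraries. No KO-labelled value reached the lowest WT value. The means were 56.0 ± 3.92 and 33.0 ± 2.93 CPM (SD, n = 3 each), 1.70 times higher in WT, with a log2 fold change of -0.76 (SE 0.11, 95% interval -1.02 to -0.51, adjusted p = 0.0132). The two-sided exact permutation p was 0.1, the smallest that 3 against 3 allows. After the GC trend was removed it was -0.51 (adjusted p = 0.0415). It no longer passed without the library labelled Sirt6 KO 1 (adjusted p = 0.0606) or the one labelled Sirt6 KO 3 (adjusted p = 0.0723). An antisense gene, *Gm11973*, overlaps 3.43% of the exonic bases of *Purb*, and whether the counting used strand is not stated.

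*Pura* (chr18:36280560-36292535, plus strand), the partner and paralog of *Purb*, went the other way. Its level was 3.33, 2.74 and 2.97 CPM in WT and 4.58, 5.43 and 4.52 CPM in the KO-labelled libraries, from 129 to 329 counts a library. The groups did not overlap, and the means of 3.01 ± 0.298 and 4.84 ± 0.507 CPM (SD, n = 3 each) differed 1.61-fold. The log2 fold change was 0.69 (SE 0.18, 95% interval 0.28 to 1.10, adjusted p = 0.0401), and 0.90 after the GC trend was removed (adjusted p = 0.0350). It kept its direction without each library in turn (0.61 to 0.77) but passed only without WT 3, with adjusted p up to 0.121. Read on the same strand, *Purb* and *Pura* share no stretch of 75 bases with any other gene's transcripts. The opposite strand was not searched.

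In the authors' TPM, *Purb* was the more abundant of the pair in every library. The ratio of *Purb* to *Pura* TPM was 3.42, 3.80 and 3.36 in WT and 1.50, 1.09 and 1.31 in the KO-labelled libraries. The groups did not overlap. The means were 3.53 ± 0.238 and 1.30 ± 0.205 (SD, n = 3 each; two-sided exact permutation p = 0.1, the smallest this design allows). By counts, the ratio was 17.8 to 20.1 in WT and 5.77 to 7.94 in the KO-labelled libraries. The size of the TPM ratio thus depends on the transcript lengths that StringTie used, which were not checked. In GENCODE M21, *Purb* has 8319 exonic bases and *Pura* 5957.

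**Figure D3:**
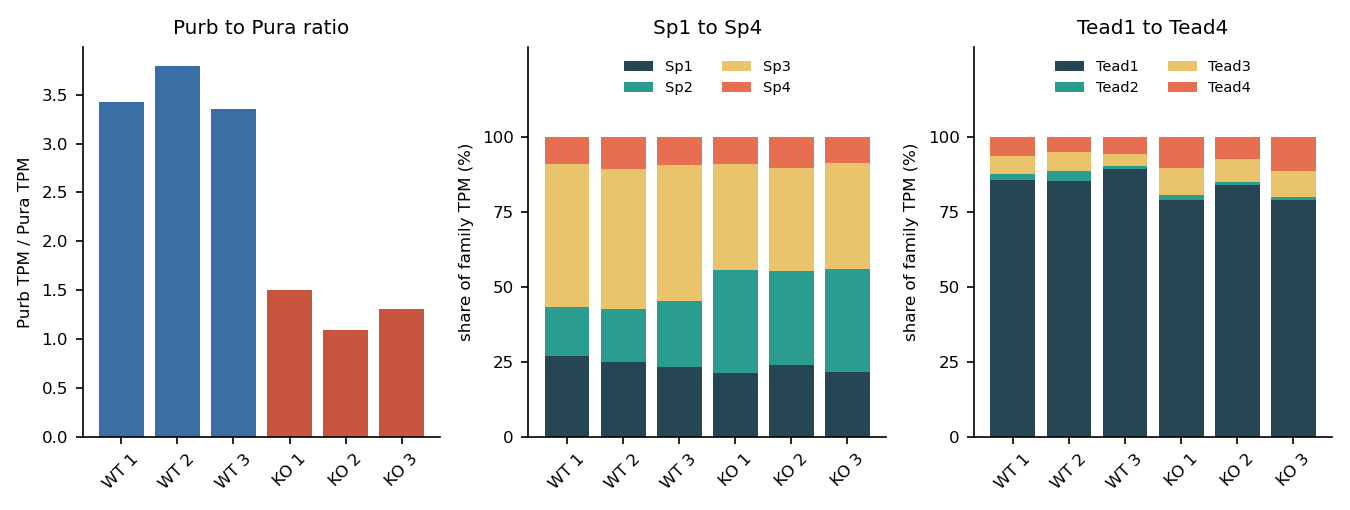
Left, the ratio of *Purb* to *Pura* TPM in each library. Middle and right, the share of each gene in the summed TPM of *Sp1* to *Sp4* and of *Tead1* to *Tead4*. In the KO-labelled libraries the ratio is 1.09 to 1.50 and the *Sp2* share is 31.4 to 34.3%.

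*Sp3* (chr2:72936430-72980446, minus strand), which binds GC boxes and acts as a repressor or an activator, was at 26.2, 26.5 and 27.8 CPM in WT, against 22.3, 21.6 and 23.0 CPM in the KO-labelled libraries. The groups did not overlap, yet the difference missed the threshold: the log2 fold change was -0.27 (SE 0.094, 95% interval -0.49 to -0.05, adjusted p = 0.0913). The direction turned, to 0.049, once the GC trend was removed. *Sp3* has the lowest GC content of the 9 genes, 40.1%.

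*Sp2*, a relative of *Sp3* in the same zinc finger family, rose from 6.60, 7.36 and 9.75 CPM in WT to 15.6, 14.4 and 16.4 CPM in the KO-labelled libraries (log2 fold change 0.97, SE 0.17, adjusted p = 0.0166). Within the summed TPM of *Sp1* to *Sp4*, the share of *Sp3* was 46.6 ± 1.09% in WT and 35.0 ± 0.60% in the KO-labelled libraries (SD, n = 3 each; exact permutation p = 0.1), while that of *Sp2* was 18.5 ± 2.90% and 33.3 ± 1.62% (exact permutation p = 0.1). No p for such a share can be below 0.1, and 24 shares in 7 families were computed. Shares within a family are not independent, since a rise of any gene lowers the shares of the others. TPM was not corrected for GC content. *Sp2* passed in 2 of the 6 fits that leave out a library, without WT 3 and without the library labelled Sirt6 KO 2.

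*Cbx1* (chr11:96788680-96808982, plus strand), which binds methylated histone H3, was at 15.3, 13.8 and 19.5 CPM in WT, against 14.8, 13.2 and 15.5 CPM in the KO-labelled libraries. The groups overlapped in CPM, with a log2 fold change of -0.16 (SE 0.15, 95% interval -0.52 to 0.20, adjusted p = 0.487). In the authors' TPM they did not, at 24.35 to 29.5 TPM in WT and 20.6 to 24.30 TPM in the KO-labelled libraries. That margin is narrow, and TPM lacks the TMM scaling between libraries. For each of the 9 genes, the log2 ratio of TPM lay below the fitted log2 fold change (-0.26 for *Cbx1*). *Cbx3*, its close relative HP1 gamma, fell from 30.8, 27.2 and 32.8 CPM in WT to 18.2, 19.3 and 17.5 CPM (log2 fold change -0.72, SE 0.11, adjusted p = 0.0138), but did not pass once the GC trend was removed (-0.37, adjusted p = 0.0744), nor without the library labelled Sirt6 KO 1 or 3. Of the 12 tested relatives of the repressors, *Cbx3* fell, *Sp2* rose and 10 did not pass. Their median log2 fold change was -0.12, beside -0.02 over all genes.

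*Six4* (chr12:73099609-73114031, minus strand), a homeodomain factor that binds MEF3 sites, was at 27.8, 19.7 and 18.0 CPM in WT, against 24.0, 17.0 and 24.0 CPM in the KO-labelled libraries. The groups overlapped, and the log2 fold change of -0.02 had a 95% interval from -0.50 to 0.47 (SE 0.21, adjusted p = 0.965). Its direction turned to 0.15 once the GC trend was removed, to 0.21 without WT 1 and to 0.15 without the library labelled Sirt6 KO 2.

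*Eya1* (chr1:14168953-14311035, minus strand), the coactivator and phosphatase that works with SIX4, was at 59.4, 56.1 and 67.6 CPM in WT, against 39.8, 52.4 and 52.3 CPM in the KO-labelled libraries. All 3 KO-labelled libraries lay below the WT range, with the lowest at replicate 1. The log2 fold change was -0.34 (SE 0.14, 95% interval -0.67 to -0.01); its unadjusted p of 0.0449 became 0.133 after adjustment over all genes, so it did not pass. Of 8 tested relatives of *Six4* and *Eya1*, the *Dach* genes included, 0 passed in either direction, and their median log2 fold change was 0.11. The share of *Eya1* in the summed TPM of *Eya1* to *Eya4* was 34.9 ± 7.01% in WT and 36.8 ± 6.42% in the KO-labelled libraries (SD, n = 3 each; exact permutation p = 0.7).

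*Tead1* (chr7:112679356-112906784, plus strand), the main M-CAT binding factor by level, was at 350, 313 and 346 CPM in WT, against 197, 311 and 271 CPM in the KO-labelled libraries. The groups did not overlap, but by a narrow margin: the library labelled Sirt6 KO 2 lay just under WT 2. The spread was wide in the second group (336 ± 20.6 and 259.9 ± 57.8 CPM, SD, n = 3 each), and the log2 fold change of -0.37 did not pass (SE 0.18, 95% interval -0.79 to 0.05, adjusted p = 0.181).

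*Tead4* (chr6:128227143-128300813, minus strand), a TEAD factor induced when myoblasts differentiate, was at 8.26, 5.62 and 6.86 CPM in WT, against 8.15, 8.45 and 12.1 CPM in the KO-labelled libraries. The groups overlapped at WT 1, and the log2 fold change was 0.47 (SE 0.21, 95% interval -0.03 to 0.97, adjusted p = 0.164). Of the 4 satellite cell markers summed above, 3 passed as higher in the KO-labelled libraries: *Pax7* rose (0.42, 0.49 and 0.54 CPM against 1.16, 1.04 and 1.33 CPM; adjusted p = 0.0299), as did *Myf5* (adjusted p = 0.0225) and *Cdh15* (adjusted p = 0.0243). The other marker, *Vcam1*, did not pass and lay the other way, at 2.97, 2.88 and 2.58 CPM in WT and 2.55, 2.00 and 2.49 CPM in the KO-labelled libraries (log2 fold change -0.26, adjusted p = 0.371; 0.04996 once the GC trend was removed). The part of these markers in the values of *Tead4* was not tested. After the GC trend was removed, *Pax7* (adjusted p = 0.0639) and *Cdh15* (adjusted p = 0.0734) no longer passed.

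Within the summed TPM of the 4 TEAD genes, *Tead1* held 86.7 ± 2.13% in WT and 80.7 ± 2.99% in the KO-labelled libraries, and *Tead4* held 5.70 ± 0.70% and 9.65 ± 2.09% (SD, n = 3 each; exact permutation p = 0.1 for both). These shares, too, depend on each other and were not corrected for GC content. *Tead1* was the predominant TEAD gene in every library. Of 9 tested TEAD relatives and cofactors, *Vgll3*, a vestigial-like cofactor of TEAD, rose from 2.85, 1.63 and 3.23 CPM to 6.58, 7.0 and 8.68 CPM (log2 fold change 1.53, SE 0.27, adjusted p = 0.0173). *Lats1*, a Hippo kinase that restrains YAP, fell (log2 fold change -0.42, SE 0.10, adjusted p = 0.0348) but did not pass after the GC trend was removed (-0.20, adjusted p = 0.234). The other 7 did not pass, *Yap1* among them (57.6 to 65.4 CPM in WT and 58.6 to 78.6 CPM in the KO-labelled libraries; log2 fold change 0.16, adjusted p = 0.417), and the median of the 9 was -0.31. Of 10 YAP-TEAD target genes 0 passed in either direction by edgeR, 8 were below 0, and their median log2 fold change was -0.45.

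**Figure D4:**
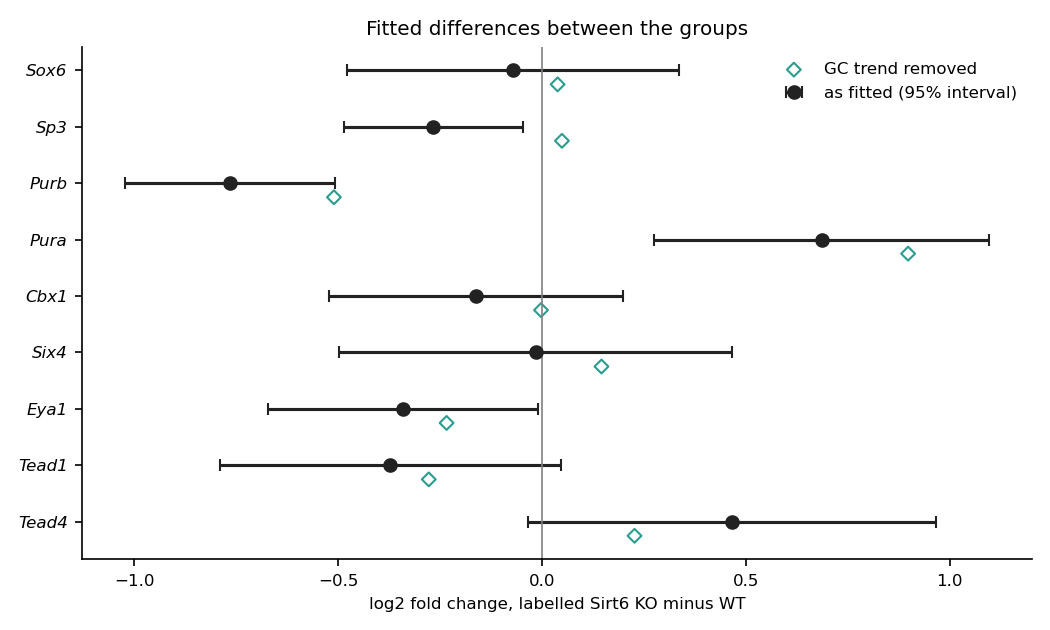
Fitted log2 fold change of each gene, labelled Sirt6 KO minus WT. Filled points with bars are the edgeR estimate and its 95% interval, and open diamonds are the estimate after the GC trend was removed. *Sp3* moves from -0.27 to 0.049, while *Purb* (-0.51) and *Pura* (0.90) stay on their sides of 0.

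Ordered by mean TPM, *Tead1* was highest in WT (76.1 ± 9.97 TPM), followed by *Sox6* (39.7 ± 3.71 TPM) and *Eya1* (30.8 ± 1.97 TPM). This order depends on the transcript lengths that StringTie used for TPM. In WT, *Cbx1* was at 16.2 CPM and *Purb* at 56.0 CPM, yet *Cbx1* was the higher in TPM (27.6 against 14.6 TPM). *Pura* was the lowest (4.14 ± 0.751 TPM). Neighbours whose WT ranges overlapped were *Eya1* and *Cbx1*, *Purb* and *Sp3*, *Six4* and *Tead4*, and *Tead4* and *Pura*. In the KO-labelled libraries, *Tead1* (54.3 ± 10.6 TPM) and *Sox6* (35.1 ± 6.01 TPM) were again first. *Purb* was at 14.6 ± 2.54 TPM in WT, above *Sp3* on average, and at 7.89 ± 0.956 TPM in the KO-labelled libraries, where it was below *Sp3* in all 3 (all SD, n = 3).

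Among 10 other regulators of fiber type, *Maf* and *Nfatc3* fell, *Mafa* rose and 7 did not pass. *Maf*, a large MAF factor of fast IIb fibers, was at 265, 280 and 285 CPM in WT, against 124, 85.2 and 88.5 CPM in the KO-labelled libraries (log2 fold change -1.48, SE 0.17, adjusted p = 0.0110). *Mafa*, of the same family, was at 9.52, 11.5 and 17.7 CPM and at 37.4, 27.2 and 35.3 CPM (log2 fold change 1.36, SE 0.24, adjusted p = 0.0171). *Nfatc3*, a calcineurin-dependent factor, had a log2 fold change of -0.51 (SE 0.12, adjusted p = 0.0324) and did not pass after the GC trend was removed (-0.39, adjusted p = 0.0866). Of 15 fast muscle genes 0 passed in either direction, with a median of 0.30.

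**Figure D5:**
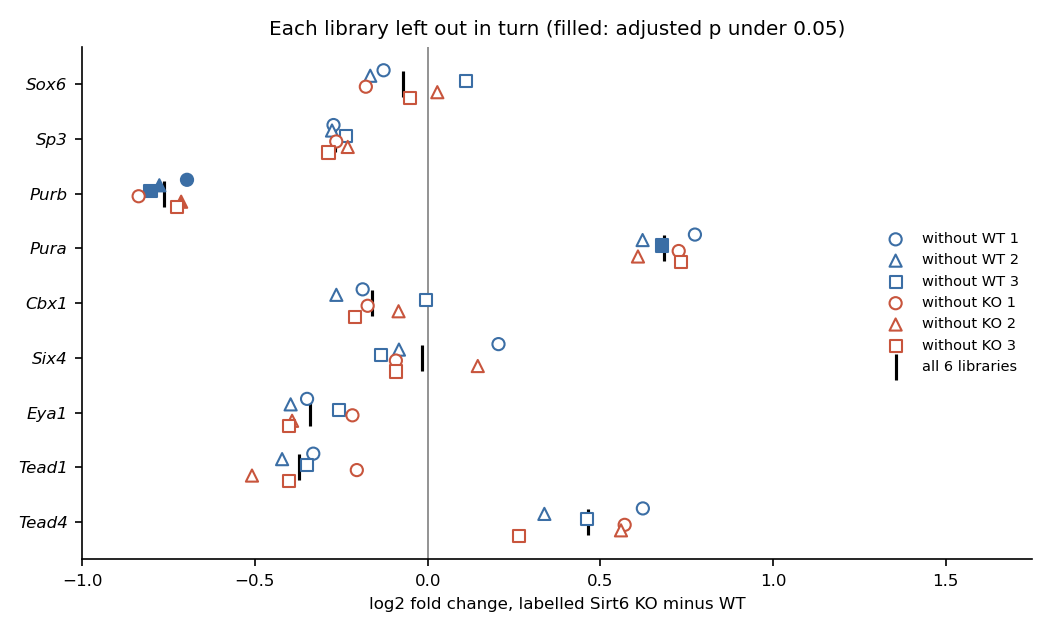
Fitted log2 fold change of each gene with each library left out in turn (symbols), beside the value from all 6 libraries (black bars). Filled symbols have an adjusted p under 0.05. *Purb* stays between -0.84 and -0.70, and *Sox6* lies on both sides of 0.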

How the data were processed

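RNA from gastrocnemius muscle was sequenced by the authors as poly-A libraries on a HiSeq instrument with paired reads. The submitters' processing notes name bcl2fastq 2.20.0, FastQC 0.11.7, HISAT2 2.1.0, Bowtie2 2.3.4.1, StringTie 2.1.3b and mm10. Strand use in counting is not stated. The authors deposited raw read counts for each gene, not normalized between libraries. The deposited FPKM and TPM values are scaled by transcript length and library total by StringTie. Counts were filtered with filterByExpr, scaled by TMM and fitted by group with edgeR 4.0.16 (quasi-likelihood test, R 4.3.3), with Benjamini-Hochberg adjustment over 13801 genes and a threshold of 0.05. Family shares and order were taken from TPM. FPKM served an alternative fit, with limma 3.58.1 on log2(FPKM + 1) or log2(FPKM + 0.1), and DESeq2 1.42.0 served another. The GC trend was removed with a lowess offset per library. Totals of 44845763 to 63016899 counts make 1 count worth at most 0.0212 CPM. Scripts were tested on simulated data. Named are the 9 genes, *Sirt6*, list genes with adjusted p under 0.05 (up to 4 a list), relatives or partners as values, and the 3 genes most correlated with *Sox6*. *Myh2* is named as the highest slow gene. Some list genes are not reported here. The 9 genes and all lists were chosen with earlier results of these data known. The edgeR p-values set the difference between groups against the spread between animals, 3 a group, estimated with information from all genes tested. Exact permutation p-values rank the labelled split of the 6 libraries among all such splits.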

Additional observations from a re-analysis of the deposited data

How the results depend on the processing

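With each of the 6 libraries left out in turn, the 9 genes gave 0 to 1 lower and 0 to 1 higher calls, and all genes gave 2 to 2219 lower and 6 to 2363 higher, fewest without the library labelled Sirt6 KO 1 or 3 and most without WT 3. The GC correction left 499 lower and 468 higher genes. DESeq2 gave more calls in both directions (1732 lower and 1667 higher genes). Same-numbered animals were treated as unpaired, and the correlations of their deviations were -0.106, 0.26 and 0.161. These correlations cannot show whether such animals shared a litter or handling. With the replicate number as a block, *Purb* passed (-0.77, adjusted p = 0.0237) and *Pura* did not (adjusted p = 0.0697), which leaves 0 higher among the 9, with 1018 lower and 904 higher genes in all. Of the 10 list genes named as passing, 2 lost the call with the block (*Lats1* and *Pax7*) and 5 with the GC correction. *Sirt6* missed the threshold without the library labelled Sirt6 KO 1 (adjusted p = 0.0606) or 3 (adjusted p = 0.065). GC correction with the block left 0 lower and 0 higher of the 9 (326 and 241 genes in all). Log2 fold changes that turned sign, with the cause not tested, were those of *Sox6* (0.038 with GC correction, 0.048 with GC correction and block, -0.18 to 0.11 over the fits without 1 library), *Sp3* (0.049 with either GC fit), *Cbx1* (0.0097 with GC correction and block), *Six4* (0.15 with either GC fit, -0.13 to 0.21 without 1 library), *Vcam1* (0.04996 with GC correction, 0.046 with GC correction and block) and *Myh7b* (-0.13 with GC correction, -1.19 to 0.98 without 1 library). Of 135 alternative values of the 9 genes, 114 kept their direction and side of the threshold, 10 kept direction only and 11 turned sign. *Pura* rests on 129 to 329 counts a library.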
